A study of Mus musculus with 46 samples.

Results

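The genes described here are 10 regulators of N6-methyladenosine (m6A) in mRNA. They comprise 5 readers of the YTH family (Ythdc1, Ythdc2, Ythdf1, Ythdf2 and Ythdf3), 3 writers (Mettl3, Mettl14 and Wtap) and 2 erasers (Fto and Alkbh5), out of 37108 genes in the gene table. They were chosen by symbol, and in the transcript table every transcript of these symbols was taken, which gave 36 of 106520. The choice was made with results of these data in view, because a single Ythdc1 transcript was the only one called between iPSC of the 2 factor combinations. That contrast chose the list and is therefore given as a description without a test. All 10 genes passed the filter on low values, and 32 of the 36 transcripts did.

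m6A is the most common internal modification of mRNA and acts on splicing, export, translation and decay. It is deposited in the nucleus by a complex around the Mettl3 and Mettl14 pair, bound by YTH domain proteins that read the mark, and removed by the demethylases Fto and Alkbh5. In mouse embryonic stem cells it marks the transcripts of many pluripotency regulators for turnover, and cells without Mettl3 are slow to leave the naive state.

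The libraries are RNA-seq of mouse embryonic fibroblasts (MEF) with an Oct4-GFP reporter, which were infected with retroviral vectors for Oct4 and either native Nanog (Nanog+Oct4 in the labels, here NanogWT) or Nanog fused at its N-terminus to the part of SS18 that binds BRG1 (NanogN70+Oct4, here NanogBiD). All time-course cells received Oct4 and the same media, first iCD3 induction medium and later N2B27 with 2iL. Cells were taken at 8 time points from D0 (after the last infection) to D12, namely D0, D1, D3 and D5, then D7 and D8, and last D10 and D12, with 2 libraries per combination and day except for a single NanogBiD library at D8. The cultures are unsorted, so they can hold cells that did not reprogram, and in such bulk samples fewer cells of a type and less RNA per cell cannot be told apart. Established iPSC had 6 libraries per combination, taken from lines called iPSC1 and iPSC2, and 2 of the NanogWT iPSC1 libraries bear the same sample number and may be related. The column names also carry a tag, of the form used for passages, that differs between iPSC1 and iPSC2, so the lines cannot be told apart from it. Within NanogWT iPSC1 the tag also differs between libraries, among them the 2 that share a number. It is the same in all NanogBiD iPSC1 libraries. As references, 2 libraries of uninfected MEF and 1 of Oct4-GFP embryonic stem cells (mES) were taken. Whether the libraries came from separate cultures is not said, so p-values measure only the spread between these libraries.

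Values are FPKM, fragments scaled to the length of the gene model and to the depth of the library. A summed FPKM of 370030 to 462190 and 12442 to 14431 genes at 1 FPKM or more were found per time-course library, and the correlation across genes between replicates of a day was r = 0.961 to 0.990. Relative sequencing depth, estimated from the value of 1 read, was 1.77 to 3.05 in the 6 NanogWT libraries of D8, D10 and D12 and 0.775 to 1.05 in the other 25 time-course libraries. Depth and combination therefore cannot be told apart from D8 on. The labels held on cell type markers. The sum of 8 fibroblast genes was 5719 to 6702 FPKM in MEF and 11.6 in mES, and that of 6 pluripotency genes that the vectors did not carry was 3399 in mES and at most 1.41 in MEF. Blood genes summed to at most 133.5 FPKM, reached at D0 with NanogWT, and primitive endoderm and trophoblast genes to at most 10.9 and 13.6 FPKM in any group.

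The transcript that chose the list was NM_177680.3 of Ythdc1, the nuclear reader that takes part in splicing and export of m6A mRNA (chromosome 5, 86803980 to 86836659, plus strand; RefSeq positions on GRCm38, as for all genes here). In NanogBiD iPSC it stood at 0.538, 0.797 and 1.25 FPKM in line iPSC1 and at 1.69, 2.11 and 4.77 FPKM in line iPSC2. In NanogWT iPSC it stood at 8.60, 10.4, 12.0 and 13.9 FPKM in iPSC1 and at 9.48 and 16.1 FPKM in iPSC2. Every NanogBiD library lay below every NanogWT library, in both lines. The difference was -2.37 on the log2(FPKM + 1) scale with line as covariate, with an SD within combination of 0.53. It was the 1 transcript called among 24655 (0.00406%), and is a description only.

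Ythdc1 as a whole did not part the iPSC in this way. Summed over its 11 transcripts, it was at 22.8, 26.7 and 32.4 FPKM (lowest, median, highest) in NanogBiD iPSC and at 26.5, 29.5 and 31.9 FPKM in NanogWT iPSC, and the ranges overlapped. NM_177680.3 made up 2.32% to 18.1% of this sum in NanogBiD iPSC, and in NanogWT iPSC a median of 37.6% and at most 52.7%, with no library under the 18.1% of the highest NanogBiD library. It was the most abundant Ythdc1 transcript in 6 of 6 NanogWT iPSC libraries and in none of the 6 of NanogBiD.

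In NanogBiD iPSC the predicted transcript XM_017320842.1 was the most abundant in 4 libraries, and XR_001784676.1 and XR_389269.3 in 1 each. XM_017320842.1 stood at 3.62, 11.3 and 20.2 FPKM (lowest, median, highest) in NanogBiD iPSC and at 1.04, 2.37 and 4.84 FPKM in NanogWT iPSC. These ranges overlapped, and its share of Ythdc1 varied from 13.3% to 82.4% among the NanogBiD libraries. With a log2 difference of 1.72 it was the member transcript with the next largest difference after NM_177680.3, and it was not called. Transcript values are estimates in which reads that fit several transcripts of a gene are divided between them, and the part of this division in the difference was not tested.

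The references did not follow one combination. NM_177680.3 stood at 1.52 and 6.15 FPKM in the 2 MEF libraries, 9.06% and 40.4% of Ythdc1, and at 0.777 FPKM in mES, 4.10% of Ythdc1. The MEF values lay on both sides of the highest NanogBiD library, and mES lay within the NanogBiD range. XM_017320842.1 was at 8.73 FPKM in mES, 46.0% of Ythdc1. Fibroblast genes were still present in some iPSC libraries, with a sum of 2.61 to 1379 FPKM in NanogBiD and 3.29 to 432 FPKM in NanogWT against 6383 to 7274 FPKM in MEF. The library with 1379 FPKM, NanogBiD iPSC1 sample 9, had NM_177680.3 at 0.797 FPKM, and the part of these cells in the difference was not tested.

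**Figure D1:**
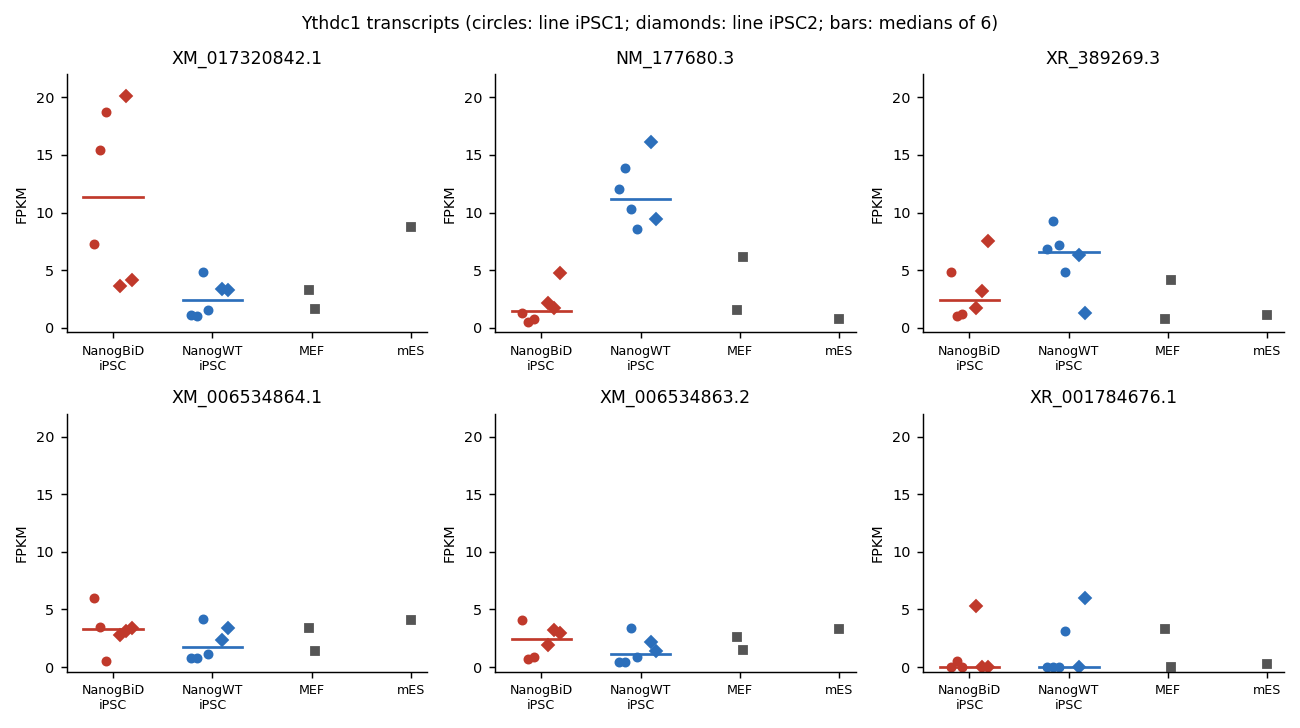
Levels (FPKM) of the 6 most abundant Ythdc1 transcripts in NanogBiD iPSC (red), NanogWT iPSC (blue), MEF and mES (grey squares), 1 point per library, with circles for line iPSC1, diamonds for iPSC2 and bars at the median of 6. NM_177680.3 is the 1 panel in which the combinations do not overlap, with 0.538 to 4.77 FPKM against 8.60 to 16.1 FPKM.

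NM_177680.3 has 17 exons, 2960 bases and 2208 coding bases in the reference annotation (GENCODE on GRCm38). The stretches below are those by which its coding sequence differs there from 2 other curated Ythdc1 transcripts, NM_001347375.1 and NM_001347376.1, and are shown because they tell the coding sequences of these transcripts apart. Capitals mark coding bases of NM_177680.3 that the other transcripts lack, with the 18 adjoining bases of the spliced transcript on each side. NM_001347376.1 lacks both stretches and NM_001347375.1 lacks the second. The first is exon 6, 54 bases or 18 codons, at chr5:86820633-86820686 on the plus strand.
Ythdc1 exon 6: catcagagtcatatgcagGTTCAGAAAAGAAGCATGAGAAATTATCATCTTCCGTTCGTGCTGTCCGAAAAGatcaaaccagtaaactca
The second is the start of exon 14, 24 bases or 8 codons, at chr5:86831773-86831796 on the plus strand.
Ythdc1 exon 14 start: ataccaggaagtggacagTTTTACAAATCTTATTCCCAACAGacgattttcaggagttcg
Both lengths are multiples of a codon, so the reading frame is kept with or without them. The 2 other curated transcripts are not listed in the transcript table, and the exon structures of the predicted transcripts were not used here, so the values do not show which stretches the NanogBiD iPSC used. In GENCODE, 631 exon bases of Ythdc1 are shared with Gm43055 on the same strand, which is not listed in the gene table, so reads there cannot be told apart.

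None of the other 35 member transcripts had iPSC ranges that did not overlap between the combinations. Over all 24655 transcripts compared, the NanogBiD libraries lay above in 14 (0.0568%) and below in 16 (0.0649%). Among the members, Mettl3 came next in spread. Its transcript XM_006519311.3 ranged from listed at 0 to 9.90 FPKM in NanogBiD iPSC and from listed at 0 to 4.94 FPKM in NanogWT iPSC. At the level of genes, the 10 members had log2 differences of -0.17 to 0.12 between iPSC of the combinations and overlapping ranges, and 0 of 12456 genes were called by limma, with 201 genes and 923 transcripts at an unadjusted p under 0.05.

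During reprogramming the question was whether the combinations parted in these genes, and when. From D0 to D5 no member was called between NanogBiD and NanogWT. At D7, 3 members were higher with NanogBiD (Ythdf1, Ythdf2 and Wtap), at D10 8 were higher and at D12 6, and none was lower at any day. No member reached 2-fold on the log2(FPKM + 1) scale, while 10.4% of all genes were called with at least 2-fold at D7, 27.8% at D10 and 23.4% at D12. Most genes called at these days were not members, so the counts are read against the share of all 16842 genes tested that was called. That share was 1.91% at D0, 3.27% at D1, 10.1% at D3, 16.4% at D5, 28.4% at D7, 55.6% at D10 and 50.7% at D12.

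Read in this way, 3 of 10 members at D7 was close to the share of all genes, 8 of 10 at D10 was above it and 6 of 10 at D12 was near it. Of all genes, 17.3% were higher and 11.1% lower at D7, 32.4% higher and 23.1% lower at D10, and 31.6% higher and 19.1% lower at D12. The median difference of the 10 members was 0.31 at D7, 0.59 at D10 and 0.49 at D12 (log2), beside 0.079, 0.097 and 0.17 over all genes tested. At D0, D1, D3 and D5 it was 0.21, 0.11, 0.13 and 0.044, beside 0.011, 0.021, 0.041 and 0.079 over all genes. The members thus already stood above all genes at D0, where none was called. The median of all genes was largest at D12, so D12 differences are also given relative to it. After quantile normalization it was 0.050, but this method gives every library the same distribution, so a small median is largely built in.

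**Figure D2:**
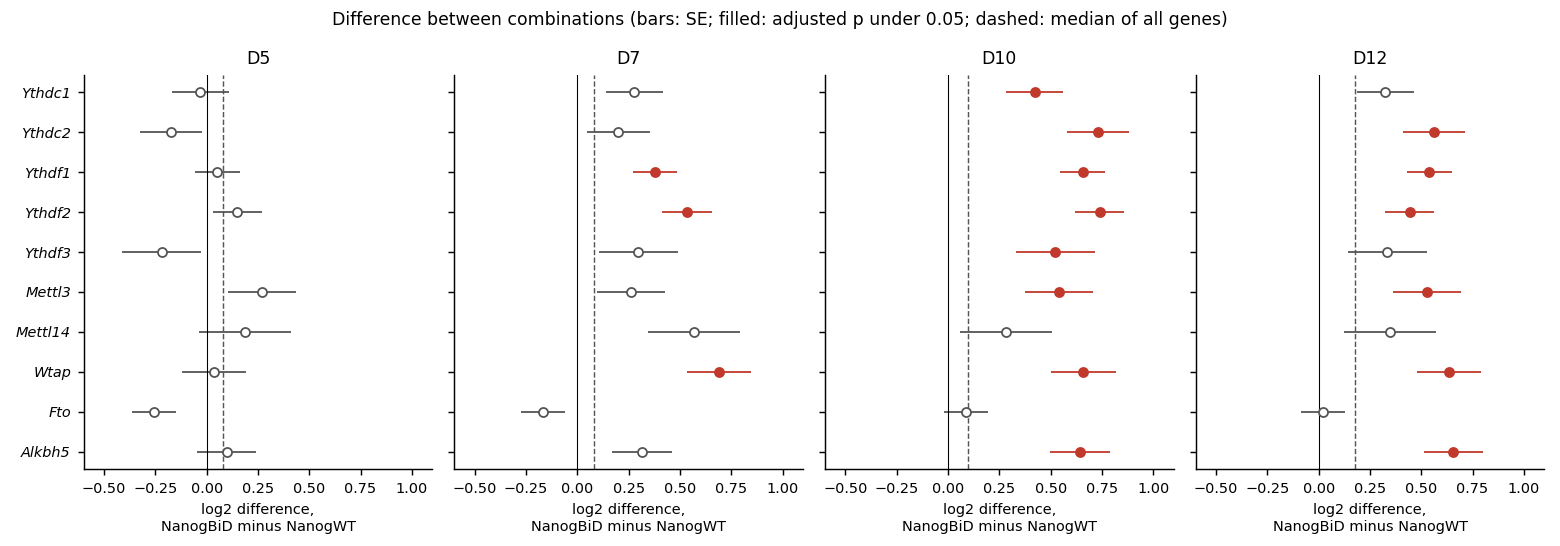
Log2 difference of FPKM + 1, NanogBiD minus NanogWT, for the 10 genes at D5, D7, D10 and D12 (points, with bars for the standard error of limma; n = 2 libraries per combination and day). Filled red points passed an adjusted p of 0.05, the dashed line is the median of all genes tested, and 0, 3, 8 and 6 points are filled at the 4 days.

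The late differences moved together with cell type markers and, from D8 on, with depth. At D7 relative depth was 1.05 and 0.961 with NanogBiD and 0.936 and 1.01 with NanogWT. The sum of the 6 pluripotency genes was 88.7 to 98.4 FPKM with NanogBiD and 2.58 to 3.26 FPKM with NanogWT at D7, 673 to 1096 and 33.6 to 83.5 FPKM at D10, and 1163 to 2077 and 155 to 209 FPKM at D12. The sum of the 8 fibroblast genes was 848 to 1063 against 1600 to 1647 FPKM at D7, 459 to 576 against 3429 to 3577 FPKM at D10, and 299 to 441 against 2920 to 3424 FPKM at D12. The part of cell makeup in the results of the members was not tested.

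Of the readers, Ythdf1, a cytoplasmic reader known for promoting translation (chromosome 2, 180904377 to 180920936), had the highest maximum of the 5, with 29.1 to 57.9 FPKM over the 34 libraries. At D0 it was at 36.9 and 37.5 FPKM with NanogBiD and at 29.1 and 33.8 FPKM with NanogWT, without overlap but not called. At D5 it was at 40.1 and 40.8 FPKM with NanogBiD and at 38.9 and 39.1 FPKM with NanogWT. At D7 it was at 48.1 and 49.9 FPKM with NanogBiD and at 34.7 and 40.4 FPKM with NanogWT. The pairs were close at D5 and further apart at D7, a difference of 0.38 on the log2 scale (SE 0.11, adjusted p = 0.0122). At D10 it stood at 45.9 and 54.1 against 30.5 and 32.1 FPKM, a difference of 0.66 on the log2 scale (SE 0.11, adjusted p = 3.82e-05). At D12 it stood at 50.2 and 51.1 against 33.5 and 35.6 FPKM, a difference of 0.54 on the log2 scale (SE 0.11, adjusted p = 0.000358), or 0.36 relative to the median of all genes. The NanogBiD libraries lay near mES (51.1 FPKM) from D7 on, and those of NanogWT near MEF (30.0 and 30.9 FPKM) at D8 and D10.

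Ythdf2, the reader that sends m6A mRNA to decay (chromosome 4, 132184916 to 132212256), had the same order of the combinations at every day. At D0 it was at 18.8 and 20.3 FPKM with NanogBiD and at 14.1 and 16.9 FPKM with NanogWT, which was not called (log2 difference 0.32, adjusted p = 0.182). At D7 it was at 30.6 and 31.3 against 20.2 and 21.9 FPKM, a difference of 0.53 on the log2 scale (SE 0.12, adjusted p = 0.00221). The NanogBiD libraries lay above those of NanogWT at all 8 days, without overlap. The log2 difference was 0.74 at D10 (SE 0.12, adjusted p = 3.26e-05) and 0.44 at D12 (SE 0.12, adjusted p = 0.00454; 0.27 relative to the median of all genes). At D10 and D12 the NanogBiD values of 28.0 to 33.9 FPKM were around mES (31.6 FPKM).

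The other readers were called at D10 or D12 only. Ythdc2, a reader with an RNA helicase domain known from meiosis (chromosome 18, 44827730 to 44889720), was the lowest of the 10, at 0.808 to 2.51 FPKM. At D10 it was at 2.36 and 2.51 FPKM with NanogBiD and at 1.00 and 1.14 FPKM with NanogWT, a difference of 0.73 on the log2 scale (SE 0.15, adjusted p = 0.000412). At D12 it was at 2.04 and 2.23 against 1.03 and 1.22 FPKM, a difference of 0.56 on the log2 scale (SE 0.15, adjusted p = 0.00441), 0.39 relative to the median. As the offset of 1 FPKM is close to its level, the scale understates its change, and the ratio of mean FPKM was 2.27 at D10.

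Ythdc1 was at 19.2 and 20.9 FPKM with NanogBiD and at 14.6 and 14.9 FPKM with NanogWT at D10, a difference of 0.42 on the log2 scale (SE 0.14, adjusted p = 0.0144). At D12 it was at 18.9 and 19.9 against 15.04 and 15.5 FPKM, where the log2 difference of 0.33 missed the threshold (adjusted p = 0.0583). The libraries did not overlap at either day. In mES Ythdc1 was at 15.2 FPKM, below the NanogBiD libraries of D7 to D12 (16.03 to 20.9 FPKM). Ythdf3 (chromosome 3, 16183148 to 16217037), which acts with Ythdf1 and Ythdf2, was at 32.1 and 35.5 against 22.8 and 23.6 FPKM at D10, a difference of 0.52 on the log2 scale (SE 0.19, adjusted p = 0.0272). At D5 its order was the other way round, with 29.0 and 30.4 FPKM for NanogBiD and 31.6 and 38.2 FPKM for NanogWT, which was not called (adjusted p = 0.484).

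Among the writers, Wtap, the adaptor that brings the methyltransferase pair to nuclear speckles (chromosome 17, 12966799 to 12992543), had the largest difference of the 10 at D7. It was at 14.1 and 18.2 FPKM with NanogBiD and at 8.50 and 10.7 FPKM with NanogWT, a difference of 0.69 on the log2 scale (SE 0.16, adjusted p = 0.00229). At D0 it had been at 11.3 and 11.8 against 9.68 and 10.7 FPKM, without overlap but not called. At D5 it had been at 10.6 and 11.0 against 10.3 and 10.7 FPKM, which overlapped. At D10 it was at 15.2 and 15.5 against 9.32 and 9.34 FPKM, a difference of 0.66 on the log2 scale (SE 0.16, adjusted p = 0.00137). At D12 the difference was 0.63 (SE 0.16, adjusted p = 0.00220), or 0.46 relative to the median. NanogWT stayed at 8.11 to 12.1 FPKM at all days, around MEF (9.04 and 11.5 FPKM), while NanogBiD from D7 on was at 14.1 to 18.2 FPKM, around mES (15.2 FPKM).

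Mettl3, the catalytic subunit (chromosome 14, 52294841 to 52308741), was at 5.90 and 6.68 FPKM with NanogBiD and at 3.70 and 4.33 FPKM with NanogWT at D10, a difference of 0.54 on the log2 scale (SE 0.17, adjusted p = 0.00940). At D12 it was at 6.05 and 7.09 against 3.89 and 4.63 FPKM, a difference of 0.53 on the log2 scale (SE 0.17, adjusted p = 0.0123), 0.35 relative to the median. Its values are uncertain, because 933 of its exon bases overlap Tox4 on the opposite strand (Tox4 up to 30.95 FPKM) and no source says if strand was used in counting. Mettl14, the partner that binds RNA in the pair (chromosome 3, 123368295 to 123385990), was not called between the combinations at any day. At D7 it was at 10.8 and 11.3 FPKM with NanogBiD and at 6.66 and 7.62 FPKM with NanogWT, without overlap (log2 difference 0.57, SE 0.22, adjusted p = 0.0650). At D10 the difference was 0.28 and at D12 0.35, as NanogWT had reached 11.5 and 12.4 FPKM at D10.

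The erasers differed from each other. Alkbh5, a nuclear demethylase (chromosome 11, 60537683 to 60558512), was at 45.8 and 51.0 FPKM with NanogBiD and at 29.9 and 31.3 FPKM with NanogWT at D10, a difference of 0.64 on the log2 scale (SE 0.14, adjusted p = 0.000839). At D12 it was at 42.2 and 43.4 against 23.8 and 30.1 FPKM, a difference of 0.66 on the log2 scale (SE 0.14, adjusted p = 0.000824), 0.48 relative to the median. In the single NanogBiD library of D8 it was at 30.6 FPKM, against 28.7 and 30.2 FPKM. Its level in mES, 62.4 FPKM, was above every library of the time course.

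Fto, the demethylase also known from a locus for body weight (chromosome 8, 91313367 to 91668433), was the 1 member with NanogBiD below NanogWT over several days. It was at 22.2 and 22.4 FPKM with NanogBiD and at 27.1 and 28.2 FPKM with NanogWT at D3, and at 22.2 and 22.6 against 26.9 and 27.1 FPKM at D5. Without overlap, the NanogBiD libraries lay below at D3, D5, D7 and D8, and they lay above at D10 (34.18 and 34.20 against 31.7 and 32.5 FPKM). None of these differences was called, with log2 differences of -0.30 at D3 (adjusted p = 0.0856) and -0.26 at D5 (adjusted p = 0.114). Rescaled to a common total, the D3 difference was called (-0.41, adjusted p = 0.0476), as it was without the filter on low values (adjusted p = 0.0391). At D10 and D12 Fto differed by 0.09 and 0.02.

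**Figure D3:**
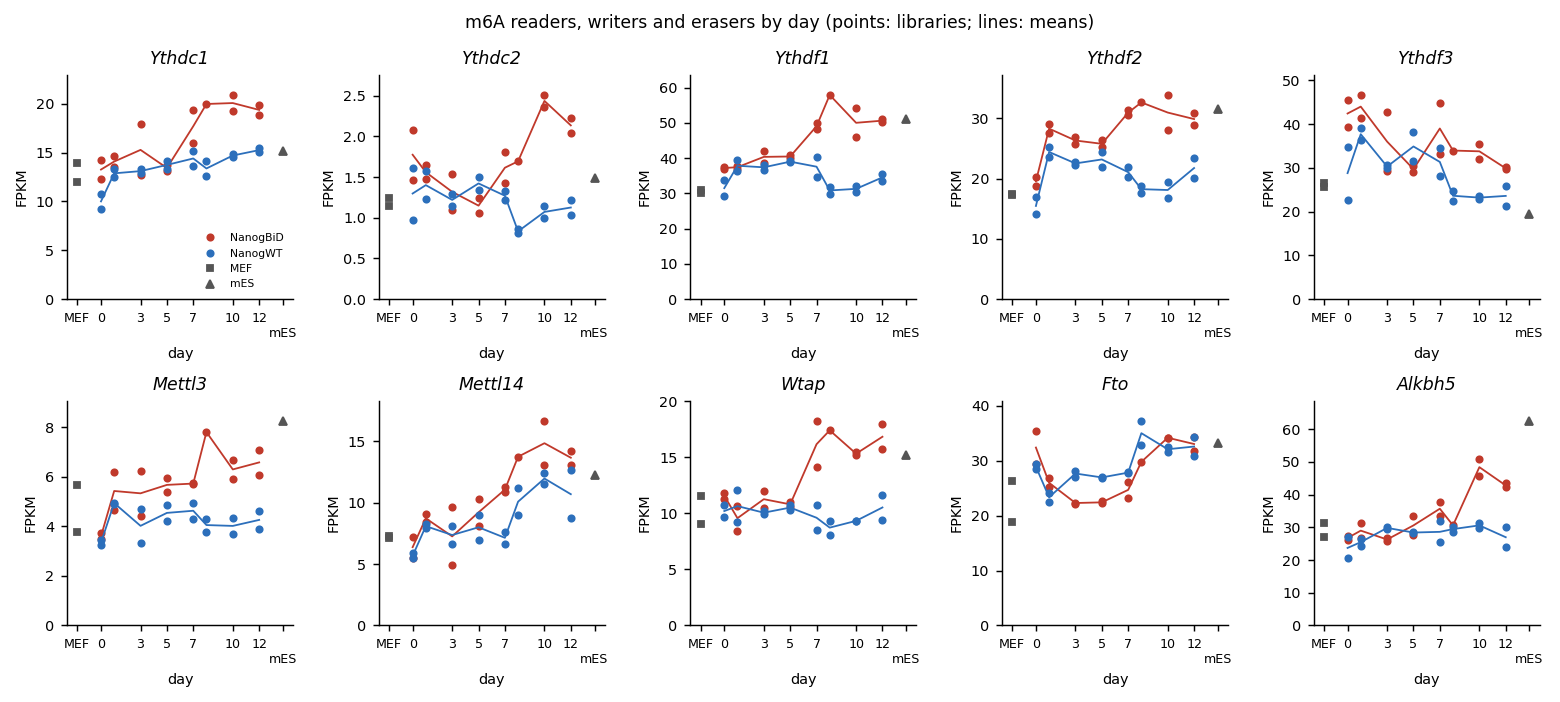
Level (FPKM) of each of the 10 genes by day with NanogBiD (red) and NanogWT (blue), 1 point per library, lines through the means, and MEF (squares) and mES (triangle) at the sides. The lines of Ythdf1 and Wtap are apart at D0, close at D5 and further apart from D7 on. Those of Ythdf2 are apart from D0 on and further from D7 on, and those of Fto run together at D10 and D12.

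How far these calls rest on single libraries differed by day. At D7, 1 of 3 was left without NanogWT D7 replicate 1 or without NanogBiD D7 replicate 2, as Ythdf1 (0.27 and 0.35) and Wtap (0.54 and 0.52) lost their calls, and Ythdf2 kept its call without each of the 4 libraries. At D10, 5 of 8 were left without NanogWT D10 replicate 1, where Ythdc1 (0.41), Ythdf3 (0.50) and Mettl3 (0.45) lost theirs. Ythdf3 lost its call at D10 without any 1 of the 4 libraries, Ythdc1 also without NanogBiD D10 replicate 2, and Mettl3 also without NanogBiD D10 replicate 1. At D12, Mettl3 lost its call without NanogBiD D12 replicate 1 or NanogWT D12 replicate 2 (0.43 each) and Ythdf2 without NanogWT D12 replicate 1 (0.34). Ythdc2, Ythdf1, Wtap and Alkbh5 kept their calls at D10 and D12 without each library in turn. At D0, where 0 members were called by limma and 4 had an unadjusted p under 0.05, Ythdf2 (0.45) and Ythdf3 (0.87) were called without NanogWT D0 replicate 2. Unadjusted p-values under 0.05 numbered 0 at D1, 1 at D3 and 1 at D5.

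Scaling ended some of these calls. Rescaled to a common total, Ythdf1 lost its call at D7 (adjusted p = 0.0572) and Ythdc1 and Ythdf3 at D10 (0.35 and 0.44). After quantile normalization, Ythdc1 and Ythdf3 at D10 (0.35 and 0.49) and Ythdc2 and Mettl3 at D12 (0.38 and 0.39) were not called.

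The promoters of the 3 genes called at D7 are shown as sequence to let them be compared. RefSeq promoter sequences (GRCm38.p6) were matched for 7 of the 10 members, and the 200 bases from 250 to 51 before each start are printed on the strand of the gene. Capitals mark matches on either strand to the octamer of Oct4 (ATGCAAAT), the CCAAT box (CCAAT), the GC box (GGGCGG) and the E-box (CACGTG).
Ythdf1, chr2:180920987-180921186, minus strand: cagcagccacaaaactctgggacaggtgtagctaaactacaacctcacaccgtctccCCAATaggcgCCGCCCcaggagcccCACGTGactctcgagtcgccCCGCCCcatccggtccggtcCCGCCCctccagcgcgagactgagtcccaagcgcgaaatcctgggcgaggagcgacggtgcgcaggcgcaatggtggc
Ythdf2, chr4:132212307-132212506, minus strand: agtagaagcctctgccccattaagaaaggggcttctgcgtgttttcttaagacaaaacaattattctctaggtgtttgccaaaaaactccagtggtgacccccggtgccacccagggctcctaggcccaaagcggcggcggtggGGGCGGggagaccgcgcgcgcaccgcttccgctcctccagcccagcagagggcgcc
Wtap, chr17:12992594-12992793, minus strand: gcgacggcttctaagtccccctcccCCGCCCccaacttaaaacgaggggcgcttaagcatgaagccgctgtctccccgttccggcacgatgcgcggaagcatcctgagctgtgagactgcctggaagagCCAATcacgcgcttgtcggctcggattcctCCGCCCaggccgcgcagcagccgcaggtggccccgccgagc
The Wtap window, that of 1 of its 3 RefSeq starts, lies before the RefSeq gene, but in GENCODE an exon of a noncoding Wtap transcript that begins further upstream overlaps it, and the other 2 windows overlap no annotated exon. The octamer was in none of the 3, and in 1.32% of all 32817 promoters of this length. The GC box matched 3 times in Ythdf1, 1 time in Ythdf2 and 2 times in Wtap, and 24.6% of all promoters held it. The CCAAT box matched 1 time each in Ythdf1 and Wtap (28.4% of all) and the E-box 1 time in Ythdf1 (4.34% of all). GC content was 66.5%, 61.0% and 67.0%, above the upper quartile of all promoters (60.0%). This was not particular to the genes called at D7, as Ythdc1, not called then, had 65.5% and 4 matches to the GC box. Mettl3, Fto and Alkbh5, also not called at D7, had 49%, 58% and 53% and no GC box. By RefSeq positions the windows of Ythdc1 and Mettl3 lie within the gene, and that of Fto crosses its outer end. These are thus windows of starts further inside the gene. A match describes the letters and not a bound site.

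Over time within a combination, D7 was compared with D0. By the paper's methods the medium was changed to iCD3 at D0 and to N2B27 with 2iL around D7. Time and medium therefore cannot be told apart, here or in D12 against D0. Relative depth with NanogWT was 0.875 and 0.934 at D0 and 3.05 and 1.96 at D12. In D12 against D0 with NanogWT, and in its comparison with NanogBiD, depth therefore cannot be told apart from time either. With NanogBiD, 7 members rose and 1 fell, beside 43.8% of all genes called (31.2% higher and 12.6% lower), and with NanogWT 2 rose and none fell, beside 38.7% (25.5% higher and 13.2% lower). No member reached 2-fold on the log2(FPKM + 1) scale, while 18.8% of all genes were called with at least 2-fold with NanogBiD and 17.7% with NanogWT. Ythdc1 and Ythdf2 rose in both. Ythdc1 went from 12.3 and 14.3 to 16.03 and 19.4 FPKM with NanogBiD (log2 difference 0.39, SE 0.14, adjusted p = 0.0293) and from 9.24 and 10.8 to 13.6 and 15.2 FPKM with NanogWT (0.49, SE 0.14, adjusted p = 0.00874). Ythdf2 rose by 0.64 and 0.43 (adjusted p = 0.000250 and 0.00793). Called with NanogBiD were also Mettl14 (0.72), Mettl3 (0.55), Wtap (0.44), Alkbh5 (0.40) and Ythdf1 (0.39), and Fto fell from 29.5 and 35.4 to 23.2 and 26.2 FPKM (log2 difference -0.38, SE 0.11, adjusted p = 0.00760).

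These rises are partly shared with all genes. The median over all genes was 0.24 with NanogBiD and 0.12 with NanogWT, beside 0.40 and 0.26 over the members. Quantile normalization brought the medians of all genes to 0.021 and -0.027. Small medians and even shares of higher and lower calls follow largely from the design of this method. Relative to the median of all genes, the rises with NanogBiD were 0.48 for Mettl14, 0.40 for Ythdf2, 0.31 for Mettl3, 0.20 for Wtap, 0.16 for Alkbh5 and 0.15 each for Ythdc1 and Ythdf1, and the fall of Fto was -0.61. Of all genes called with NanogBiD, 71.2% were higher, and 52.2% after quantile normalization, where 2 members were higher (Ythdf1 and Ythdf2) and 2 lower (Fto and Ythdc2). With NanogWT the share went from 65.9% to 49.3%, and no member was called. The difference between the combinations in this change was called for 0 members by limma, beside 15.9% of all genes, with 2 members at an unadjusted p under 0.05 (Wtap 0.53 and Fto -0.32).

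The D7 counts against D0 moved with single libraries. With NanogBiD, 4 members were called without NanogBiD D0 replicate 1, without NanogBiD D0 replicate 2 and without NanogBiD D7 replicate 2. With NanogWT, 0 were called without NanogWT D0 replicate 1 or NanogWT D7 replicate 2, and 4 without NanogWT D0 replicate 2, where Ythdf1 (0.35) and Alkbh5 (0.45) were added.

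At D12 against D0, 7 members rose and 1 fell with NanogBiD, beside 61.7% of all genes called (42.8% higher and 18.9% lower), and 3 rose with NanogWT, beside 38.1% (27.4% higher and 10.7% lower). No member reached 2-fold on the log2(FPKM + 1) scale, while 34.7% of all genes were called with at least 2-fold with NanogBiD and 16.2% with NanogWT. Mettl14 with NanogBiD fell just short on this scale, and its mean FPKM, without the offset, went from 6.38 to 13.7, which is more than 2-fold. Mettl14 rose in both, from 5.53 and 7.22 to 13.1 and 14.2 FPKM with NanogBiD (log2 difference 1.00, SE 0.22, adjusted p = 0.000708) and from 5.47 and 5.87 to 8.73 and 12.7 FPKM with NanogWT (0.79, SE 0.22, adjusted p = 0.00876). Ythdc1 rose by 0.52 and 0.57 and Ythdf2 by 0.59 and 0.47. With NanogBiD, Mettl3 (0.72), Alkbh5 (0.66), Wtap (0.50) and Ythdf1 (0.43) were also higher, and Ythdf3 was lower, at 29.7 and 30.1 FPKM after 39.4 and 45.5 FPKM (log2 difference -0.49, SE 0.19, adjusted p = 0.0343). Without NanogWT D12 replicate 1, Mettl14 with NanogWT was not called (0.55), and without NanogBiD D0 replicate 2, or either NanogBiD library of D12, Ythdf3 was not called. Ythdf3 was also not called without the filter on low values (adjusted p = 0.0659), rescaled to a common total (adjusted p = 0.0768) or with the trend over GC content and length removed (-0.17, adjusted p = 0.0675).

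The median over all genes was 0.34 with NanogBiD and 0.19 with NanogWT, and 0.0084 and -0.022 after quantile normalization, again largely by the design of the method. Relative to it, Mettl14 rose by 0.66 and 0.60, Ythdc1 by 0.17 and 0.37 and Ythdf2 by 0.24 and 0.28, and Ythdf3 with NanogBiD stood at -0.83. After quantile normalization 4 members were higher and 2 lower with NanogBiD, among them Ythdc2, at -0.41 after 0.18 without it, and with NanogWT 1 was called, Ythdc2, which was lower (-0.55). The higher share of all calls went from 69.3% to 51.5% with NanogBiD and from 71.9% to 49.4% with NanogWT. The difference between the combinations in the D12 change was called for 0 members, beside 37.1% of all genes, with Alkbh5 (0.48) and Wtap (0.47) at an unadjusted p under 0.05. Alkbh5 was called without NanogWT D0 replicate 1 (0.66) or NanogWT D12 replicate 1 (0.64).

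The established iPSC were compared with MEF in the transcript table, a contrast that did not choose the list. By the paper's methods iPSC and mES were kept in N2B27 with 2iL and MEF in medium with serum. Cell type and medium therefore cannot be told apart. Summed over transcripts, 6 of 10 members were higher in iPSC and none was lower, beside 71.4% of 13312 genes called (41.2% higher and 30.2% lower). The count of members is thus below the share of all genes called and above the share that was higher. Wtap, Ythdf2 and Ythdf1 were more than 2-fold higher, beside 40.7% of all genes called with at least 2-fold in either direction. The median of the members was 0.66 (log2) beside 0.22 over all genes, and relative to the latter Wtap stood at 0.91, Ythdf2 at 0.88 and Ythdf1 at 0.84. Levels in this table are not set beside those of the gene table, since the tables were made separately and differ for MEF and mES.

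Wtap was at 38.2 to 54.9 FPKM in the 12 iPSC libraries, at 21.0 and 22.6 FPKM in MEF and at 35.6 FPKM in mES (log2 difference of iPSC from MEF 1.13, SE 0.10, adjusted p = 6.53e-07). Ythdf2 was at 27.2 to 36.2 FPKM in iPSC, at 14.19 and 14.23 FPKM in MEF and at 24.96 FPKM in mES (1.1004, SE 0.10, adjusted p = 1.04e-06). Ythdf1 was at 43.7 to 61.7 FPKM in iPSC, at 24.8 and 25.2 FPKM in MEF and at 40.1 FPKM in mES (1.06, SE 0.11, adjusted p = 2.11e-06). For these 3 genes every iPSC library lay above both MEF libraries and above mES.

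Mettl3 (0.88, adjusted p = 0.000294), Ythdc1 (0.77, adjusted p = 4.02e-05) and Mettl14 (0.53, adjusted p = 0.00757) were also higher in iPSC. Mettl3 ranged from 8.80 to 15.7 FPKM and Mettl14 from 7.79 to 12.6 FPKM in iPSC, against 5.53 and 7.24 FPKM and 6.68 and 6.73 FPKM in MEF. Mettl14 lost its call without either MEF library (adjusted p = 0.0538 and 0.0503). Not called were Ythdc2 (0.54, adjusted p = 0.0630), Alkbh5 (0.07), Ythdf3 (-0.12) and Fto (-0.15). Rescaled to a common total, 5 members were higher and 2 lower, Ythdf3 (-0.35) and Fto (-0.38), and Mettl14 was not called. After quantile normalization 6 were higher and Fto lower (-0.32).

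Alkbh5 set iPSC apart from mES. It was at 21.3 to 28.8 FPKM in the iPSC libraries, at 21.3 and 25.1 FPKM in MEF and at 48.0 FPKM in the single mES library, so that every iPSC library lay below mES and the iPSC and MEF ranges overlapped. Fto was at 18.3 to 26.5 FPKM in iPSC, 20.4 and 26.6 FPKM in MEF and 33.99 FPKM in mES, again with every iPSC library below mES. With 1 mES library these differences have no replicate check.

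**Figure D4:**
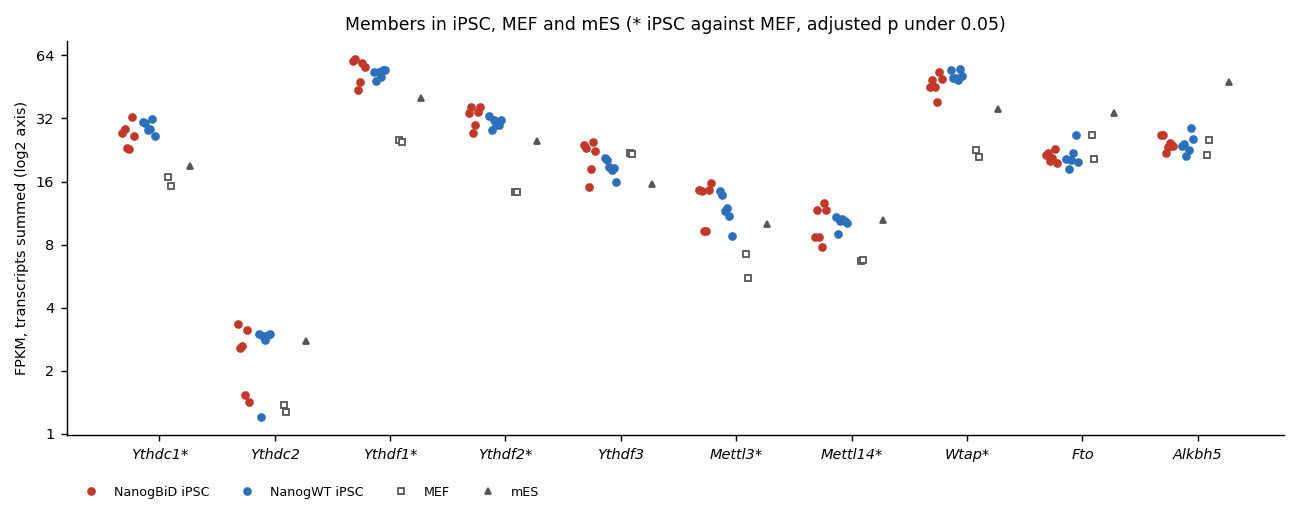
Level of each gene (FPKM summed over transcripts, log2 axis) in the 12 iPSC libraries (red NanogBiD, blue NanogWT), 2 MEF libraries (open squares) and 1 mES library (triangle). Stars mark the 6 genes with an adjusted p under 0.05 for iPSC against MEF, and in Alkbh5 and Fto the iPSC points overlap the MEF points and lie below mES.

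Of the 32 member transcripts tested, 6 were higher in iPSC than in MEF and none was lower, beside 35.1% of 26937 transcripts called (18.9% higher and 16.2% lower). Wtap had 3 of them. Its main transcript NM_001113533.1 was at 23.6 to 33.7 FPKM in iPSC and at 14.7 and 15.2 FPKM in MEF (0.93, SE 0.12, adjusted p = 9.40e-05). XM_017317593.1 was at 3.76 to 9.32 FPKM in every iPSC library and at 4.64 FPKM in mES, and was listed at 0 in both MEF libraries. It passed the filter on low values through the iPSC libraries alone, so its call (adjusted p = 8.64e-07) is a description only. XM_006523341.3 was at 6.49 to 14.8 FPKM in iPSC and at 1.72 and 3.00 FPKM in MEF (1.68, SE 0.28, adjusted p = 0.000485). The others were the single transcripts of Ythdf1 (NM_173761.3), Ythdf2 (NM_145393.4) and Mettl14 (NM_201638.2, adjusted p = 0.0318). None of the 11 Ythdc1 transcripts was called. NM_177680.3 differed from MEF by 0.43 (SE 0.38), with the combinations on both sides.

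The remaining genes differed in how far 1 transcript held their level in iPSC. Fto was 99.3% to 100% NM_011936.2, and Alkbh5 had NM_172943.4 as its single transcript. Ythdf3 was led by NM_001145919.1 (6.56 to 15.7 FPKM in NanogBiD and 6.62 to 13.5 FPKM in NanogWT iPSC) and Mettl3 by NM_019721.2 (3.06 to 15.4 and 4.48 to 13.4 FPKM). Ythdc2 was led by NM_001163013.1, which ranged from listed at 0 to 3.31 FPKM in NanogBiD iPSC. Libraries of the same combination thus differed several-fold in Mettl3 and Ythdc2 transcripts.

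The other 22 genes of the m6A pathway that were listed, among them further subunits of the writer complex, other readers and the enzyme that makes the methyl donor, were all tested. Between the combinations, 0 were called at D0 and D1. At D3 2 were higher, at D5 1, at D7 12 and at D10 14. At D12 14 were higher and 1 was lower. Of all genes, 10.1% were called at D3, 16.4% at D5, 28.4% at D7, 55.6% at D10 and 50.7% at D12. The counts at D3 and D5 were thus not above the share of all genes. Their median difference was 0.51 at D7, 0.76 at D10 and 0.59 at D12, beside 0.079, 0.097 and 0.17 over all genes. At D5 the 1 called was Rbm15b, a subunit that guides the complex on RNA (0.78, SE 0.25, adjusted p = 0.0392). Rescaled to a common total, neither the 2 of D3 nor Rbm15b at D5 were called, and quantile normalization ended the 2 of D3.

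At D7 the largest of these differences were in Igf2bp1 (2.48, SE 0.24, adjusted p = 2.46e-07) and Igf2bp3 (1.17, SE 0.17, adjusted p = 3.02e-05), readers that stabilize mRNA. They were followed by Srsf3 (0.98), a splicing factor that binds Ythdc1, and Mat2a (0.90), which makes S-adenosylmethionine. At D12 they were in Igf2bp1 (2.19995), Igf2bp2 (1.38), Igf2bp3 (1.26) and Cnot1 (1.07), the scaffold of the deadenylase that Ythdf2 recruits. The 1 that was lower at D12 was Mat2a (-0.82, SE 0.19, adjusted p = 0.00119), which is named here after its value was seen. Members that reached 1 on the log2 scale between the combinations numbered 0. Of the pathway genes named, Igf2bp1 and Igf2bp3 reached it at D7, and Igf2bp1, Igf2bp2, Igf2bp3 and Cnot1 at D12.

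In iPSC against MEF, 15 of the 22 were higher and none was lower, beside 71.4% of all genes called and 41.2% higher, and their median was 0.66 beside 0.22 over all genes. Igf2bp1 (2.75) and Cnot1 (1.73) were among them, and Mat2a was higher too (1.30).

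Among themselves, the members fell into genes that moved together and genes that did not. Over the 34 libraries of the gene table, which share days and combinations, Pearson r of log2(FPKM + 1) was 0.91 for Ythdf1 with Ythdf2 and 0.86 for Ythdf1 with Wtap. Fto correlated with the other members at -0.31 to 0.38 and Ythdf3 with Mettl14 at -0.29. The writers Mettl3 and Mettl14 correlated at 0.63. These values describe the libraries and carry no test.

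For 1 gene of each role the most similar courses among 16841 other genes were looked up by the same measure over 34 libraries. Ythdc1 was most like Bclaf1 (r = 0.94), Cpsf6 (0.92) and Arid2 (0.90). Mettl3 was most like Slc16a1 (0.90), Cdk2 (0.88) and Fen1 (0.88). Fto was most like Armh4 (0.87), 3632451O06Rik (0.87) and Peli2 (0.83). In the order of group means, 11 (Fto) to 16 (Wtap) of the 17 neighbouring pairs of groups had overlapping libraries, so the order is not resolved beyond the spread in most places.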

How the data were processed

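Mouse RNA-seq of 46 samples was used. According to the submitters' processing notes, the authors trimmed reads with Trim Galore 0.6.4, aligned them to mm10 with HISAT2 2.2.1 and quantified them with StringTie 2.2.1. The deposited values are FPKM, in a gene table (37108 genes, 34 libraries) and a transcript table (106520 transcripts, 15 libraries), with replicates kept apart. The annotation and the use of strand are not given in the sources used here. The study called differences with a tool that needs mapped reads, which was not applied, and no count model was used because FPKM are not counts.

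Groups came from the sample labels. Values were analysed as log2(FPKM + 1), which understates changes of low genes. The 16842 genes that reached 1 FPKM in 2 or more libraries of the time course were fitted with limma 3.58.1 (R 4.3.3; a mean per combination and day, eBayes with trend), and calls were made at a two-sided Benjamini-Hochberg adjusted p under 0.05 over all genes. D8 had 1 NanogBiD library and was not tested. For iPSC, transcripts were summed per gene or tested singly, and the mean over combination and line was set against MEF. A member was named whatever its result; of the pathway list, those called at D5, D7 or D12 were named, at most 4 per comparison. Relative depth came from the FPKM of 1 read among low values and depth in the iPSC table is unknown, so no counting intervals are given. The fit was tested on simulated data. Python 3.11.15, numpy 2.4.6, pandas 2.3.3 and matplotlib 3.10.9 were used. Members and lists were chosen with earlier results of these data known. Alternatives were a pseudocount of 0.1, no filter, a common total (TPM), quantile normalization, the replicate number as a block, a fit to the compared groups alone, a 2-fold limit, removal of the trend of values with GC content and length in each library (15428 genes, 91.6%, all 10 members) and leaving out each library.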

Additional observations from a re-analysis of the deposited data

Results flagged for a closer look

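Within the 56 groups of 6 iPSC libraries looked at, 6 held a library far from the other 5 by Dixon's criterion, which chance gives in about 1 of 20 groups. NanogWT replicate 2 (iPSC2, sample 5) had Ythdc2 at 1.204 FPKM against 2.81 to 3.01 FPKM in the others, with its transcript NM_001163013.1 at 0.127 FPKM against 2.14 to 2.50 FPKM, and Mettl14 at 8.97 FPKM against 10.2 to 10.9 FPKM. NanogBiD replicate 1 (iPSC2, sample 3) had the Ythdc1 transcripts XR_001784676.1 at 5.34 FPKM against at most 0.513 FPKM and XM_006534867.3 at 1.11 FPKM against at most 0.157 FPKM. NanogBiD replicate 6 (iPSC2, sample 2) had NM_177680.3 of Ythdc1 at 4.77 FPKM against 0.538 to 2.11 FPKM, which was still below every NanogWT iPSC library.

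The change over time was called as different between the 2 combinations for 4 of 22 pathway genes at D7 and 7 of 22 at D12, beside 15.9% and 37.1% of all genes, by the limma interaction term on the log2 scale (NanogBiD change minus NanogWT change). No member was called, but with the trend over GC content and length removed 1 was at D7 and 3 were at D12. From D0 to D7 the difference was 2.57 for Igf2bp1, 1.13 for Igf2bp3, 0.70 for Igf2bp2 and 0.61 for Mettl16, a methyltransferase of U6 snRNA and Mat2a mRNA. From D0 to D12 it was 2.29 for Igf2bp1, 1.36 for Igf2bp2, 1.21 for Igf2bp3, 1.07 for Cnot1, 0.55 for Hnrnpc, 0.49 for Rbm15 and -1.10 for Mat2a. In these D12 values NanogWT depth and time cannot be told apart. The Igf2bp genes fell with NanogWT from D0 to D7 by 1.71 (Igf2bp1), 1.27 (Igf2bp3) and 0.78 (Igf2bp2), while with NanogBiD Igf2bp1 rose by 0.86.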

How the results depend on the processing

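No called difference of a member changed sign under any alternative. Among values that were not called, Ythdc2 from D0 to D12 with NanogBiD turned from 0.18 to -0.41 after quantile normalization, and Alkbh5 in iPSC against MEF from 0.07 to -0.16 at a common total. The median of the members at D5 turned from 0.044 to -0.047 after quantile normalization. Of the counts of members called, 170 under alternatives were within 1.5 times the main count, 23 were lower and 11 higher, and of the single called genes 542 kept their call and 92 lost it with the same direction. With the 2-fold limit, set on the log2(FPKM + 1) scale, 0 members were called at D7, D10 and D12. Nor were any called from D0 to D7 or from D0 to D12 in either combination, and 3 were in iPSC against MEF. Fitted to the compared groups alone, 0 were called at D7, 2 from D0 to D7 with NanogBiD, and 0 from D0 to D7 and from D0 to D12 with NanogWT. Quantile normalization gave 4 from D0 to D7 with NanogBiD, 0 with NanogWT, and 1 from D0 to D12 with NanogWT, where 3 that were higher gave way to Ythdc2, which was lower. A common total gave 1 at D3 (Fto) and 4 from D0 to D7 with NanogWT, and no filter gave 1 at D3 (Fto). With the trend over GC content and length removed, 1 was called at D0 (Ythdf3), 5 at D7, and for the interaction 1 at D7 (Wtap) and 3 at D12 (Ythdc2, Wtap and Alkbh5). The difference of NM_177680.3, which chose the list and is given as a description, was -3.03 with a pseudocount of 0.1. The cause of these changes was not tested.

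Without 1 library in turn, the members called were 0 to 2 at D0, 1 to 3 at D7, 5 to 7 at D10, 5 to 6 at D12, 4 to 7 (NanogBiD) and 0 to 4 (NanogWT) from D0 to D7, 6 to 8 and 2 to 3 from D0 to D12, 0 to 1 for the interaction at D12, and 5 to 7 in iPSC against MEF, with 5 to 6 transcripts. Over the same omissions the value of NM_177680.3 ranged from -2.57 to -2.25, which supports nothing since the list was chosen on it. With the 2 NanogWT iPSC1 libraries that share a number averaged, an alternative chosen after seeing the data, the same 6 genes and 6 transcripts were called in iPSC against MEF. Same-numbered libraries deviated together at a correlation of -0.065 to 0.39, highest at D7 (0.39) and D0 (0.23). Whether the numbers pair the libraries is not said and was not settled by these values. With the replicate number as a block, 3 members were called at D7, 8 at D10 and 7 at D12, where Ythdc1 was added (adjusted p = 0.0488). Among all genes, this block raised the number called from 321 to 454 at D0 and from 4779 to 5093 at D7. With 2 libraries per group, small differences cannot be resolved. NanogWT depth from D8 on is confounded with combination, and from D0 to D12 with time.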
